A study of Mus musculus with 4 samples.

Results

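The genes encoding collagen chains were taken as every gene whose symbol consists of Col, a number, the letter a and a number, which gave 44 of the 28006 features counted. Collagens are the main structural proteins of bone, cartilage, vessel walls and marrow stroma, and each molecule is a trimer of chains that may be identical or encoded by different genes. Fibrillar collagens build the load-bearing fibrils, fibril-associated collagens decorate their surface, and network-forming collagens make sheets such as basement membranes. Type I collagen, the trimer of Col1a1 and Col1a2 chains, is the bulk of bone matrix, whereas type II collagen, made of Col2a1 chains, is typical of cartilage. By family, the 44 genes comprised 11 fibrillar, 9 fibril-associated, 6 basement membrane, 6 beaded filament, 4 transmembrane, 3 short-chain network, 2 multiplexin, 2 anchoring or von Willebrand domain chains and 1 chain of none of these.

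The cells were tdTomato+ cells sorted from femurs of Cxcl12-iCreER; R26R(tdTomato/+) mice and profiled by droplet-based 3′ RNA sequencing. Tamoxifen, which activates the recombinase and so marks the cells, was given 7 days before surgery, and cells were taken 7 days after it. In the ablated femur (ABL) the marrow had been removed mechanically, while the contralateral femur (CONT) was left untreated, and the comparison asked how marked stromal cells respond to this injury. Each condition had 2 libraries, replicate 1 on Chromium version 2 and replicate 2 on version 3. Both conditions carried the same alleles and received tamoxifen, the recombinase was driven by a bacterial artificial chromosome holding the Cxcl12 gene, the mice had a mixed background, replicate 1 pooled several mice, and the labels give no age.

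The libraries held 22889380 to 44784072 UMIs (unique molecular identifiers, each standing for a captured transcript), and 1459 to 3433 droplets passed as cells. CONT 1 and ABL 1 shared 5 cell barcodes, and CONT 2 and ABL 2 shared 1. Replicate 2 stands apart: Xist, the transcript of the inactive X chromosome, was found in 71.8% of CONT 2 mesenchymal cells but 0.0558% of those in ABL 2, so these libraries cannot come from the same mix of mice, and condition and sex cannot be told apart there. In CONT 1 and ABL 1, 49.7% and 80.6% of mesenchymal cells held Xist, and 29.5% and 15.8% held a Y-linked UMI. The median depth of these cells was 4580 and 7067 UMIs, so sex was not balanced in replicate 1 either. Calls from cells with a Y-linked UMI and no Xist UMI are therefore given for reticular and all mesenchymal cells. Pre-osteoblasts and periosteal-like cells left under 10 such cells in a library and could not be fitted, and the tests between classes were not run on these cells. Free RNA, read from droplets without a cell, was estimated at 7.72% and 6.20% of mesenchymal UMIs in CONT 1 and ABL 1 and 0.704% and 0.461% in CONT 2 and ABL 2. Hematopoietic cells had 0.0358% to 0.139% of their UMIs on collagen chains, and this level was taken as the background for each chain. Whether all of it is free RNA was not tested. In CONT 1, Col1a2 carried 17.7% of hematopoietic collagen UMIs and 18.8% of those in empty droplets, but Col5a1 carried 3.97% and 1.89%.

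Cells were grouped without any collagen or marker gene and named from markers. Reticular cells numbered 1161 in CONT 1, 410 in ABL 1, 1969 in CONT 2 and 341 in ABL 2, and their 12 markers, among them Cxcl12 and Adipoq, summed to between 30049 and 35390 CPM (counts per 1e+06 UMIs of the class). Pre-osteoblasts numbered 30, 97, 30 and 185 in the same order, and periosteal-like cells 57, 50, 24 and 397. Osteoblasts (55 and 38) and chondrocyte-like cells (19 and 70) reached 10 cells in the ABL libraries only. Endothelial cells numbered 89 in CONT 1, 25 in CONT 2 and 116 in ABL 2, since in ABL 1 the 109 cells richest in endothelial markers scored nearly as high for lymphoid ones and were left out. In ABL 2, 752 mesenchymal cells, or 42.0%, lay in clusters without a name. The counts come from the 3′ ends of transcripts and are not divided by length, so levels are compared between classes or conditions, not between genes.

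The promoters of 4 chains on which the results turn are shown here so that they can be read beside the expression values. Col8a2 and Col3a1 rose and Col6a5 fell in ABL reticular cells, and Col1a2 encodes the partner of Col1a1 in type I collagen. Each run spans 250 bases before to 50 after a RefSeq transcript start in GRCm38.p6, 5′ to 3′ on the gene's strand. Capitals mark matches on either strand, with overlapping matches run together. The motifs searched were the letters TATAAA for the box of that name, the letters CCAAT for the box so called, the letters GGGCGG for the GC box, the letters TGTGGT for the RUNX motif and the letters TGANTCA for the AP-1 motif.
Col8a2, chr4:126286544-126286843, plus strand: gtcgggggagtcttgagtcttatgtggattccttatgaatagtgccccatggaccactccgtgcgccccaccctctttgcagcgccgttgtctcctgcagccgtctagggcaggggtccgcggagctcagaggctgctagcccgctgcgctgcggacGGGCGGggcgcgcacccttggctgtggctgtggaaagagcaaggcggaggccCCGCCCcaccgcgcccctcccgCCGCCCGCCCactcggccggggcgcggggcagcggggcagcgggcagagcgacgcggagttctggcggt
Col3a1, chr1:45311288-45311587, plus strand: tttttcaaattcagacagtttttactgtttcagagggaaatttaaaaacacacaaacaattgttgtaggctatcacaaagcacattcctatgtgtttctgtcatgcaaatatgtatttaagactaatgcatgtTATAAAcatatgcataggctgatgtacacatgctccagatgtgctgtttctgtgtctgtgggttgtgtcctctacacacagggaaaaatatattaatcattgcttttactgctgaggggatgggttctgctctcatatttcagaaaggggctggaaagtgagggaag
Col6a5, chr9:105960594-105960893, minus strand: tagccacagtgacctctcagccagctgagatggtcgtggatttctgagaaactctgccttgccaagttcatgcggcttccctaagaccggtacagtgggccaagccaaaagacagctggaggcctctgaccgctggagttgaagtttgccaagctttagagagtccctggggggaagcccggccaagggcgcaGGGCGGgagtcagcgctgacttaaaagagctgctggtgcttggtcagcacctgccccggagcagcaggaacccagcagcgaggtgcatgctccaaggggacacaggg
Col1a2, chr6:4505368-4505667, plus strand: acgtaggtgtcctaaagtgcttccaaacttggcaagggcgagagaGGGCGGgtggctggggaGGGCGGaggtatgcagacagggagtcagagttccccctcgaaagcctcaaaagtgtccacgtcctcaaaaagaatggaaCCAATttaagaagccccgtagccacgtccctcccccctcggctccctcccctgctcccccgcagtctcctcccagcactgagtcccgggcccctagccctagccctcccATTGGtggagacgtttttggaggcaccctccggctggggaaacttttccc

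Promoters were found for 35 of the 44 genes, 38 in all, and were set beside all 32851 mouse promoters of the same length. A GC box was present in 60.5% of the collagen promoters and 35.7% of all promoters. A CCAAT box was present in 34.2% and 37.4%, and a TATA box in 13.2% and 13.6%. The RUNX motif occurred in 7.89% of the collagen promoters and 16.8% of all, and the AP-1 motif in 2.63% and 7.81%. The Col3a1 promoter matched the TATA box letters but not those of the GC box. That of Col8a2 matched the GC box letters only, and that of Col1a2 the GC and CCAAT box letters. These matches describe letters anywhere in a short window, whatever their distance from the start. The 44 genes lay on 15 chromosomes, and 8 pairs were within 200000 bases of each other, among them Col4a1 and Col4a2, which start head to head on chromosome 8, and Col3a1 and Col5a2, which end tail to tail on chromosome 1 with 24614 bases between them.

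Of the 44 genes, 27 reached 100 CPM in both replicates in at least 1 of the 6 classes, and 17 did not, of which 10 stayed under 10 CPM in every class. Each of the 44 had at least 1 UMI in mesenchymal cells. Among the 27, the mean level was highest in chondrocyte-like cells for 13, in osteoblasts for 6, in periosteal-like cells for 4, in endothelial cells for 2, in pre-osteoblasts for 1 and in reticular cells for 1. Osteoblast and chondrocyte-like means come from ABL libraries alone, whereas those of reticular, pre-osteoblast and periosteal-like cells include the CONT libraries. This ranking therefore mixes condition with class. The differences between classes are described without a test, because the classes come from clusters of the same cells, although no collagen gene entered the clustering.

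**Figure D1:**
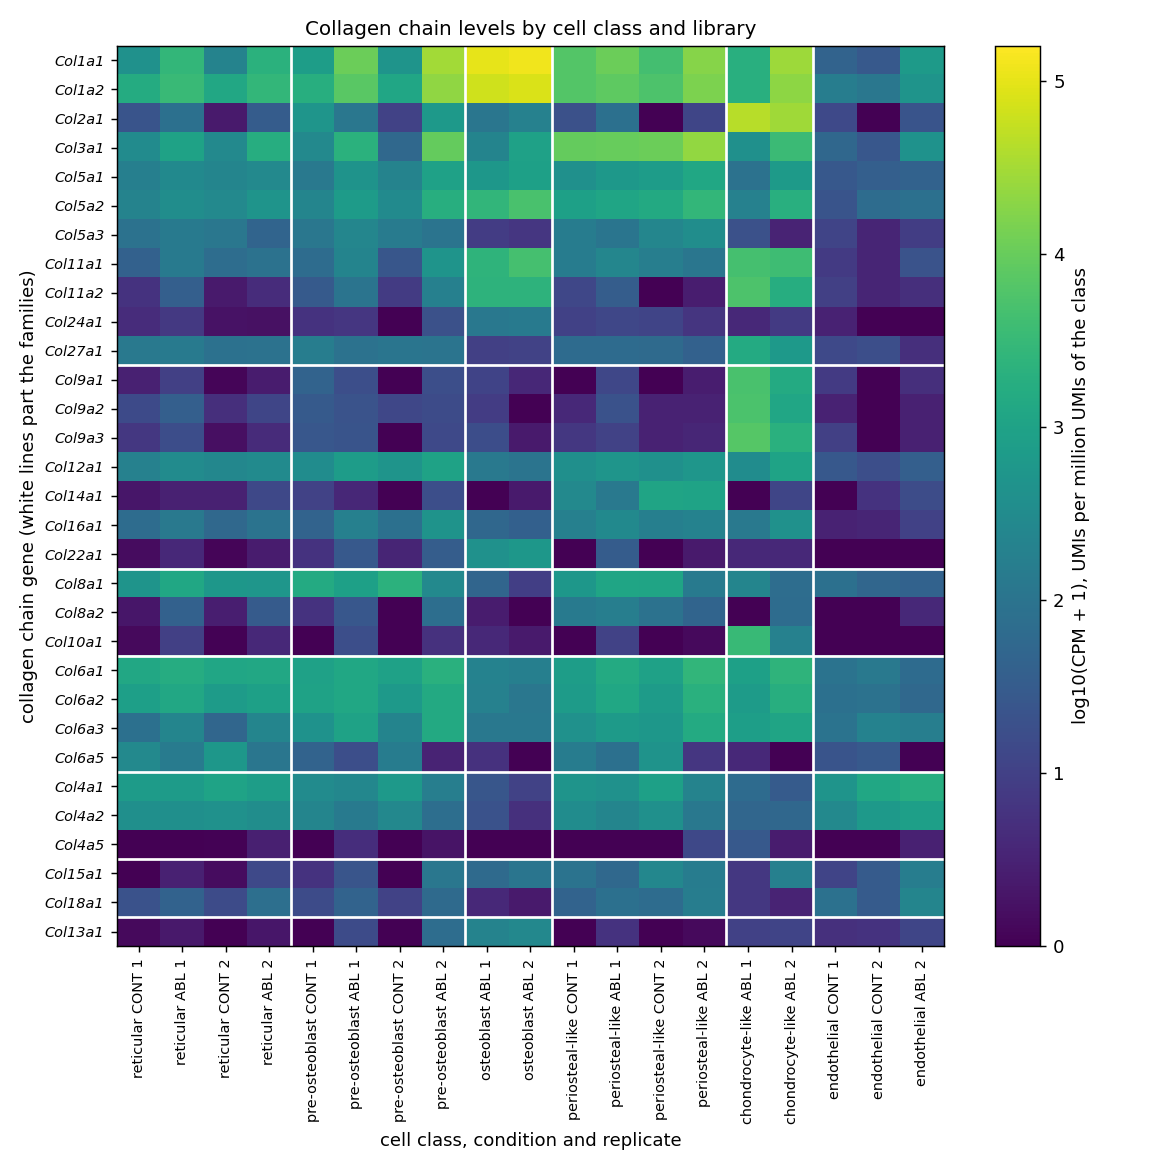
Level of each named collagen chain (rows, grouped by family) in each class and library with at least 10 cells (columns), as the base-10 logarithm of CPM plus 1. Col1a1 and Col1a2 are brightest in osteoblasts and Col2a1 in chondrocyte-like cells, and Col6a5 is brightest in reticular and periosteal-like cells of the CONT libraries.

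Collagen made up very different parts of the transcriptome. In osteoblasts it took 17.8% of all UMIs in ABL 1 and 21.9% in ABL 2. Chondrocyte-like cells gave 8.48% and 10.2% in the same libraries. Periosteal-like cells gave 2.83% in CONT 1, 3.78% in ABL 1, 3.06% in CONT 2 and 6.99% in ABL 2. Pre-osteoblasts gave 0.913%, 2.82%, 0.825% and 7.26%, and reticular cells 0.741%, 1.46%, 0.745% and 1.24%. In both classes the ABL value was above the CONT value in each replicate, and pre-osteoblasts of the CONT libraries were close to the reticular level. Endothelial cells had the lowest share, with 0.166% in CONT 1, 0.280% in CONT 2 and 0.525% in ABL 2. In ABL 2, 1 of the 116 endothelial cells held 83.8% of their Col3a1 UMIs. A single cell likewise held 72.9% of their Col1a2 and 70.4% of their Col1a1 UMIs, so the ABL 2 share rests in part on very few cells. The level in hematopoietic cells of the same libraries was 0.0358%, 0.0568% and 0.0891%.

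Chain use also differed by class. In osteoblasts, Col1a1 carried 57.5% of collagen UMIs in ABL 1 (95% exact binomial interval 57.2 to 57.8) and 55.5% in ABL 2, and Col1a2 carried 36.9% and 37.4%. In chondrocyte-like cells Col2a1 carried 52.8% in ABL 1 but 28.7% in ABL 2, where Col1a1 carried 27.2% against 2.28% in ABL 1. In endothelial cells Col4a1, a basement membrane chain, carried 29.6% in CONT 1, 45.4% in CONT 2 and 33.4% in ABL 2. The ABL 2 share is lowered by the Col1a1, Col1a2 and Col3a1 UMIs that lay mostly in a single cell each. In periosteal-like cells Col3a1, the chain of the type III collagen of loose connective tissue, carried 26.3% to 34.9%. Reticular cells spread their collagen over more chains: in CONT 1, Col1a2 carried 20.9%, Col6a1 17.7%, Col6a2 11.6%, Col4a1 9.69%, Col8a1 6.72% and Col1a1 5.66%. The intervals reflect counting alone and leave out other sources of error.

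**Figure D2:**
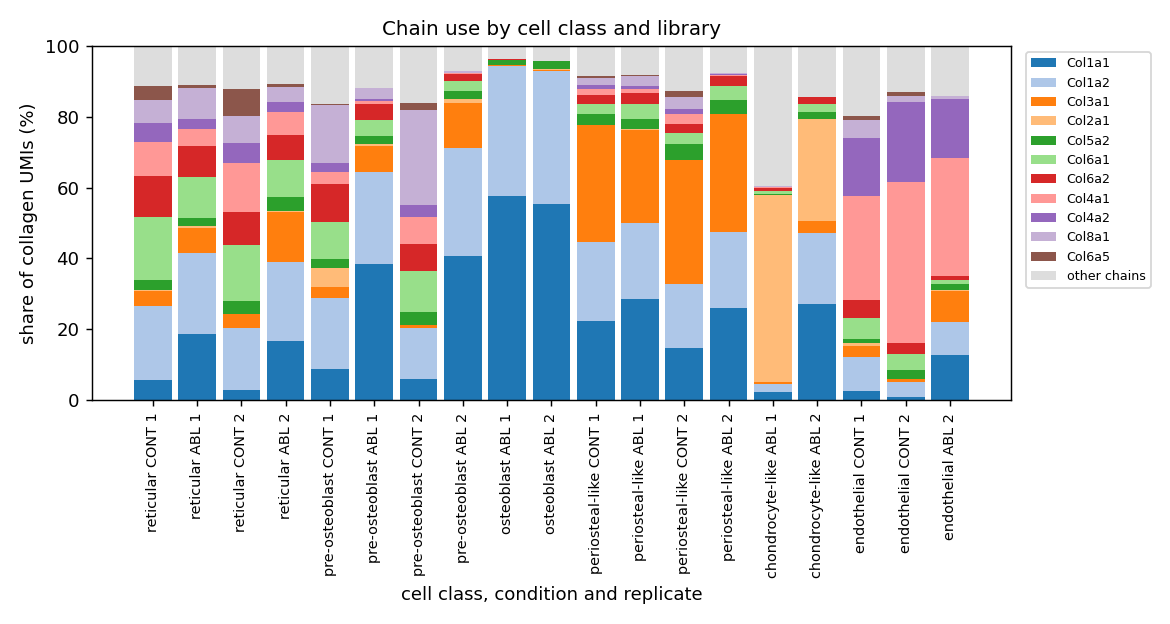
Share of all collagen UMIs carried by 11 chains and by the remaining ones (stacked, percent) in each class and library with at least 10 cells. Col1a1 and Col1a2 fill most of the osteoblast bars, and in reticular cells the Col1a1 part grows from 5.66% in CONT 1 and 2.77% in CONT 2 to 18.7% in ABL 1 and 16.7% in ABL 2.

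Col1a1, the main type I chain, stood at 102476 CPM in ABL 1 and 121212 CPM in ABL 2 osteoblasts, and Col1a2 at 65682 and 81715 CPM. In periosteal-like cells Col1a1 was at 6289 CPM in CONT 1, 10785 in ABL 1, 4481 in CONT 2 and 18118 in ABL 2. In pre-osteoblasts it was at 800 CPM, 10864, 498 and 29527 in the same order. Here the ABL libraries were far above the CONT libraries, whereas the periosteal-like levels were high in all 4 libraries. In ABL 2, 42.0% of the mesenchymal Col1a1 UMIs lay in clusters without a name, 20.1% in periosteal-like cells, 16.9% in osteoblasts and 1.10% in reticular cells, whereas in ABL 1 osteoblasts held 72.1%.

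The other fibrillar chains were shared out between classes. Col3a1 was at 9331 to 23242 CPM in periosteal-like cells, at 220 and 936 CPM in ABL 1 and ABL 2 osteoblasts and at 276 to 1727 CPM in reticular cells. Col5a2, part of type V collagen, which sets fibril width, was highest in osteoblasts at 2619 and 4996 CPM, and its partner Col5a1 was at 573 and 906 CPM there and at 413 to 1263 CPM in periosteal-like cells. The third type V partner, Col5a3, showed the opposite, with 7.39 and 5.60 CPM in osteoblasts against 103 to 346 CPM in periosteal-like cells. Col11a1 and Col11a2, chains of the type XI collagen of cartilage fibrils, were at 2452 and 4543 CPM and at 2340 and 2350 CPM in ABL 1 and ABL 2 osteoblasts. In chondrocyte-like cells they were at 4685 and 3877 CPM and at 5545 and 1757 CPM. Col24a1, a minor fibrillar chain, was at 121 and 139 CPM in osteoblasts and at most 18.7 CPM in any library of the other classes. Col27a1, a fibrillar chain known from cartilage, was at 1515 and 611 CPM in chondrocyte-like cells and at 8.87 and 9.80 CPM in osteoblasts.

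Chondrocyte-like cells of ABL 1 and ABL 2 differed from each other. Col2a1 was at 44758 and 29222 CPM, and the type IX chains Col9a1, Col9a2 and Col9a3, which coat type II fibrils, were at 5025 and 1485, 5245 and 1182, and 6840 and 1976 CPM. Col10a1, the marker of hypertrophic cartilage, was at 3226 CPM in ABL 1 and 193 CPM in ABL 2. Col1a1 was at 1931 and 27658 CPM, so that the cartilage chains were lower and the type I chains higher in ABL 2, without overlap of intervals. These are 19 and 70 cells of 1 library each, and the clusters of replicate 2 were unequal, with Col2a1 at 39245 CPM over 40 cells and 4984 CPM over 31 cells. In chondrocyte-like cells of ABL 1 and ABL 2, pre-osteoblast markers summed to 5854 and 11844 CPM and osteoblast markers to 3406 and 9679 CPM. Periosteal-like markers summed to 1062 and 3627 CPM, and chondrocyte-like markers to 28372.5 and 25206 CPM. Their part in the differences was not tested. Of the mesenchymal Col10a1 UMIs, 95.3% in ABL 1 and 91.8% in ABL 2 lay in these cells.

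The fibril-associated chains outside type IX and the transmembrane chains were highest in different classes. Col22a1, a fibril-associated chain of tissue junctions, was at 420 and 552 CPM in osteoblasts and at most 33.8 CPM in any library of the other named classes. In ABL 2, however, the clusters without a name were at 195 CPM and held 83.5% of its mesenchymal UMIs, against 13.4% in osteoblasts. An unnamed cluster of replicate 2, with 190 cells, was at 748 CPM, above the osteoblast levels. Its Col1a1 level was 1998 CPM. Col13a1, a transmembrane chain, was at 211 and 266 CPM in osteoblasts. Col14a1, a fibril-associated chain of dense connective tissue, was at 280, 127, 1086 and 1021 CPM in periosteal-like cells of CONT 1, ABL 1, CONT 2 and ABL 2 and at 1.03 to 12.5 CPM in reticular cells. Col12a1, a related chain, was at 335 to 976 CPM in pre-osteoblasts, 334 and 1026 CPM in chondrocyte-like cells, 395 to 542 CPM in periosteal-like cells and 192 to 316 CPM in reticular cells, so the neighbouring ranges overlap except the last. Col16a1, another fibril-associated chain, was at 176 to 296 CPM in periosteal-like and 55.7 to 125 CPM in reticular cells. It was at 43.7, 182, 81.0 and 475 CPM in pre-osteoblasts of CONT 1, ABL 1, CONT 2 and ABL 2 and at 129 and 433 CPM in chondrocyte-like cells of ABL 1 and ABL 2, so no single class stands out. Of the multiplexins, which sit in basement membrane zones, Col15a1 was at 54.9 to 255 CPM in periosteal-like cells. Col18a1 was at 85.2 CPM in CONT 1, 29.4 in CONT 2 and 235 in ABL 2 endothelial cells, and at 45.2, 83.6, 69.1 and 162 CPM in periosteal-like cells of CONT 1, ABL 1, CONT 2 and ABL 2, so that the ranges overlap. The mural cells, of which each library held 4 to 9, were at 348, 637, 243 and 931 CPM.

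Col4a1, Col4a2, Col6a1, Col6a2 and Col8a1 were at higher levels in reticular cells than in osteoblasts, whereas the ranges of Col6a3 overlapped. Col4a1 and Col4a2, the ubiquitous chains of type IV collagen, were at 702 to 1028 CPM and 356 to 429 CPM in reticular cells. In endothelial cells they were at 492, 1271 and 1755 CPM and at 273, 633 and 872 CPM in CONT 1, CONT 2 and ABL 2. In osteoblasts both were at 23.6 CPM or less. The reticular and endothelial ranges overlap, since CONT 1 endothelial cells lay below the reticular range and those of CONT 2 and ABL 2 above it. In CONT 1 endothelial cells, myeloid markers summed to 29391 CPM and erythroid markers to 31152 CPM, against 15062 CPM for endothelial markers. In CONT 2 the myeloid and erythroid sums were 137 and 1266 CPM, and in ABL 2 they were 8774 and 146 CPM. Their part in these levels was not tested. Col6a1 and Col6a2, which form beaded filaments with Col6a3, were at 1180 to 1675 CPM and 698 to 1283 CPM in reticular cells, and at 171 to 197 CPM and 113 to 189 CPM in osteoblasts. Col6a3 itself was at 120 and 119 CPM in osteoblasts of ABL 1 and ABL 2 and at 50.2 to 237 CPM in reticular cells. Col8a1, a network chain of vessel walls, was at 497 to 1280 CPM in reticular cells and at 48.8 and 8.40 CPM in osteoblasts. Col6a5, a further type VI chain that can take the place of Col6a3, was the only 1 of the 27 with its highest mean in reticular cells.

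Classes were also read against the reticular cells of the same libraries. All 4 periosteal-like libraries were above all 4 reticular libraries for 12 of 40 chains, among them Col3a1, Col1a1, Col5a1, Col8a2 and Col14a1, against 3.99% of all genes. They were all below for 2, against 9.19% of genes. Pre-osteoblasts lay above for 2 of 39 chains (1.28% of genes) and below for 5 (6.25%), Col4a1 and Col4a2 among the 5. Against the reticular cells of ABL 1 and ABL 2 alone, osteoblasts of these libraries lay above for 12 of 33 (10.4% of genes) and below for 17 (54.8%), and chondrocyte-like cells above for 13 of 34 (13.1%) and below for 7 (41.7%). Against the reticular cells of CONT 1, CONT 2 and ABL 2, endothelial cells lay below for 17 of 38 (19.4%) and above for 2 (14.3%).

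Ratios of partner chains, in which capture differences between genes cancel when classes are compared, moved with class. The ratio of Col1a1 to Col1a2 UMIs was 1.56 and 1.48 in osteoblasts of ABL 1 and ABL 2. In reticular cells it was 0.271 in CONT 1 (95% interval 0.259 to 0.284), 0.815 in ABL 1, 0.156 in CONT 2 and 0.749 in ABL 2, and in pre-osteoblasts 0.439, 1.48, 0.421 and 1.34. Periosteal-like cells gave 0.998, 1.33, 0.804 and 1.20. Hematopoietic cells, where the counts are taken as background, gave 0.493, 1.17, 0.195 and 1.21, so the background moved in the same direction as the reticular ratio. The ratio of Col6a3 to Col6a1 was 0.0622, 0.141, 0.0426 and 0.183 in reticular cells and between 0.450 and 0.600 in periosteal-like cells. By contrast, the Col4a1 to Col4a2 ratio lay between 1.81 and 2.40 in all reticular libraries and between 1.43 and 2.18 in periosteal-like ones.

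**Figure D3:**
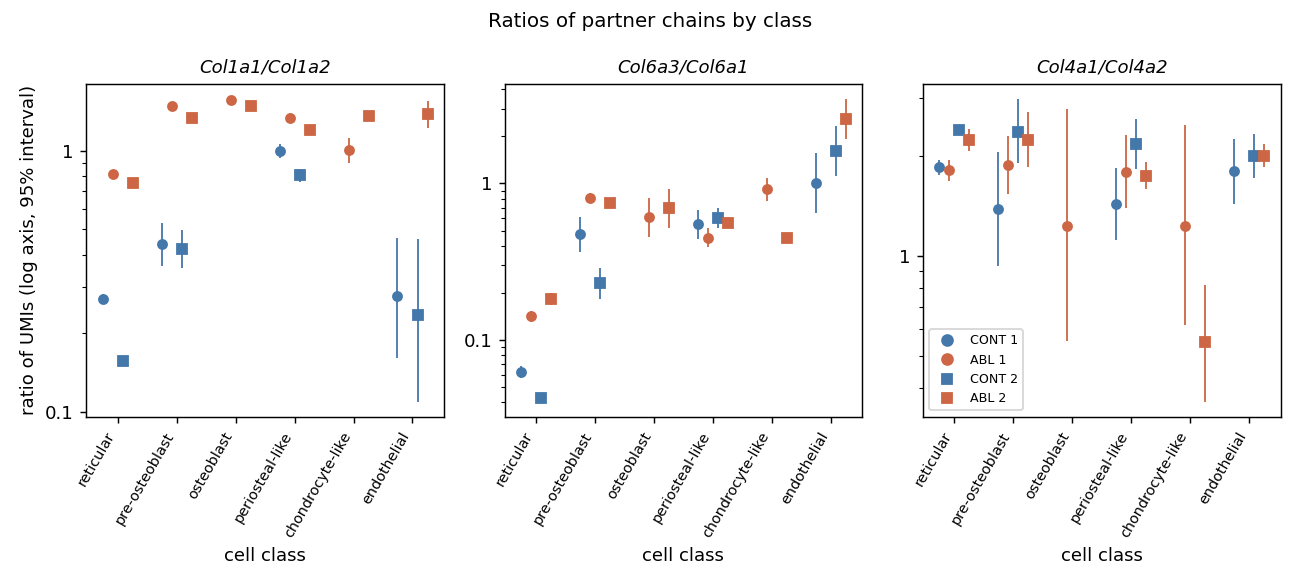
Ratio of the UMIs of partner chains (log axes, bars are 95% exact intervals of counting error) by class, with CONT blue, ABL orange, replicate 1 round and replicate 2 square. The Col1a1 to Col1a2 ratio rises from 0.271 and 0.156 in CONT to 0.815 and 0.749 in ABL reticular cells, while the Col4a1 to Col4a2 ratio of reticular cells stays between 1.81 and 2.40.

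The comparison of ABL with CONT used counts summed per library and class, with the replicate as a block, in edgeR's quasi-likelihood test over all genes. In reticular cells 11383 genes were tested and 27 of the 44 chains passed the filter on low counts. Of these, 12 were higher in ABL at an adjusted p under 0.05, against 2.56% of all genes, and 1 was lower, against 2.17% (13 chains in either direction, against 4.73%). Col8a2 and Col10a1, among the 12, passed that filter through the ABL libraries alone. The median log2 fold change was 0.71 over the 27 chains and -0.01 over all genes, and 22 of the 27 were positive. In cells with a Y-linked UMI and no Xist UMI, 6 of 22 chains tested were higher, against 0.648% of all genes, and 1 was lower, against 0.324%. Without the replicate block none was called, with 8 chains at an unadjusted p under 0.05. The same held when the hematopoietic level was subtracted from all genes. Under both settings 0% of all genes were called. On simulated counts the fit without the block recovered 0 of 200 changed genes, so it cannot tell whether the chains differ.

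Among the fibrillar chains, Col1a1 was at 419 CPM in CONT 1, 2726 in ABL 1, 206 in CONT 2 and 2075 in ABL 2 reticular cells. Its log2 fold change was 2.92 ± 0.46 (SE, n = 2 per condition, edgeR adjusted p = 4.29e-08). Hematopoietic cells of the same libraries held 31.2, 461, 20.2 and 219 CPM, so the reticular level in ABL was 5.91 and 9.49 times that background. Col3a1 was at 319, 992, 276 and 1727 CPM and rose by 2.04 ± 0.42 on the log2 scale (adjusted p = 7.15e-05). For both chains the ABL libraries lay above both CONT libraries. Col1a2 was at 1544, 3346, 1320 and 2769 CPM, a log2 difference of 0.99 ± 0.47 that did not pass (adjusted p = 0.281), although the groups do not overlap. Type V chains did not pass either: Col5a1 differed by 0.39 ± 0.30, Col5a2 by 0.71 ± 0.33 and Col5a3 by -0.45 ± 0.25.

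Col8a2, the partner of Col8a1 in type VIII collagen, showed the most significant difference of the chains. It was at 1.03 CPM in CONT 1, 39.9 in ABL 1, 1.68 in CONT 2 and 30.5 in ABL 2. These are 122 UMIs in ABL 1 and 83 in ABL 2, and hematopoietic cells held at most 1.66 CPM in any library. The log2 fold change was 4.44 ± 0.35 (adjusted p = 1.44e-33). With each cell thinned to 2000 UMIs, 0.238% of CONT 1, 6.45% of ABL 1, 0.233% of CONT 2 and 5.05% of ABL 2 reticular cells held a Col8a2 UMI, against at most 0.340% of hematopoietic cells (unthinned, 0.517%, 17.6%, 0.762% and 11.7%). Every cell reached this depth. Its partner Col8a1 was at 497, 1280, 553 and 528 CPM, so only replicate 1 showed a higher ABL level, and its log2 difference was 0.55 ± 0.39 (adjusted p = 0.588).

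Of the beaded filament chains, Col6a3 was at 81.8, 237, 50.2 and 236 CPM in CONT 1, ABL 1, CONT 2 and ABL 2 and rose by 1.79 ± 0.28 (adjusted p = 1.55e-08). Col6a5 moved the other way, at 280, 142, 571 and 108 CPM, and fell by 1.78 ± 0.33 on the log2 scale (adjusted p = 6.45e-06). Both ABL libraries lay below both CONT libraries. After thinning, 39.5%, 22.5%, 56.1% and 16.5% of reticular cells held a Col6a5 UMI, against 2.01%, 1.23%, 3.25% and 0.254% of hematopoietic cells (unthinned reticular shares, 63.0%, 45.6%, 88.4% and 33.4%). Col6a1 and Col6a2 differed by 0.14 ± 0.43 and 0.37 ± 0.41, neither past the threshold. The type IV chains Col4a1 and Col4a2 differed by -0.30 ± 0.40 and -0.23 ± 0.34. Col18a1 was at 19.2, 41.9, 14.6 and 78.7 CPM and rose by 1.73 ± 0.24 (adjusted p = 2.74e-10), and Col16a1, at 66.7, 125, 55.7 and 93.8 CPM, rose by 0.73 ± 0.24 (adjusted p = 0.0421). With 1 replicate left out, no test remains and the log2 difference of CPM plus 1 is of another scale than the fitted value. It was -0.97 for Col6a5 and 1.09 for Col18a1 without replicate 2, against -2.39 and 2.36 without replicate 1. Col12a1 and Col27a1 differed by 0.39 ± 0.31 and 0.01 ± 0.25.

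The cartilage chains were also called, but near the background. Col2a1 was at 21.6, 83.1, 1.38 and 32.0 CPM in reticular cells, with a log2 fold change of 2.93 ± 0.26, and at 15.5, 63.5, 0.514 and 16.8 CPM in hematopoietic cells. In ABL 1 the reticular level was 1.31 times the hematopoietic level (95% interval 1.12 to 1.53). The same ratio was 1.08 for Col10a1, 1.12 for Col11a2 and 1.37 for Col9a3, each with an interval that includes 1. The log2 fold changes were 4.74 ± 0.87 for Col10a1, 2.21 ± 0.38 for Col11a2 and 1.68 ± 0.49 for Col9a3. Col10a1 had 2 UMIs in CONT 1 reticular cells and passed the filter on low counts through the ABL libraries alone. Col9a2, which rose by 1.33 ± 0.31, and Col11a1, which rose by 0.95 ± 0.24, were 3.53 and 7.05 times the hematopoietic level in ABL 1. For Col9a2, Col9a3 and Col11a2 the CONT 1 level was above that of ABL 2, so the call rests on the comparison within replicates. With 1 replicate left out, the log2 differences of CPM plus 1 ranged from 1.90 to 3.79 for Col2a1, 0.98 to 2.67 for Col11a2 and 0.38 to 1.71 for Col11a1, the last being lowest without replicate 1. With the hematopoietic level of each chain subtracted, 9 of 25 chains were higher (2.51% of all genes) and 1 lower (2.17%). Col9a3 was then not called (adjusted p = 0.202), and Col10a1 and Col11a2 did not enter the test.

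**Figure D4:**
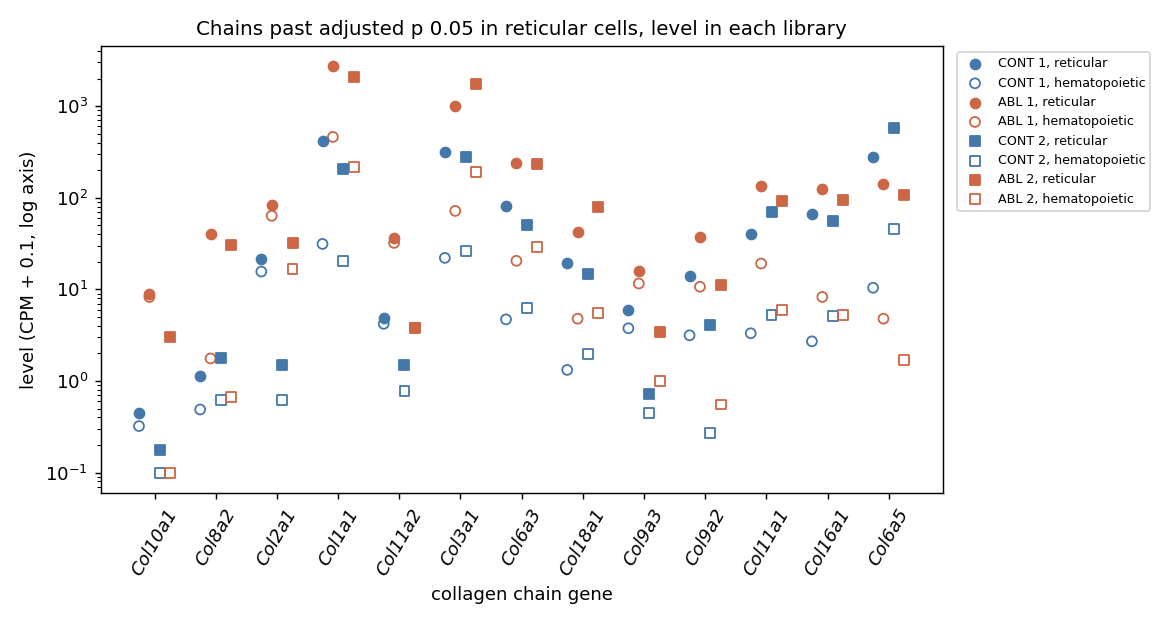
Level (CPM plus 0.1, log axis) in each library of the 13 chains past an adjusted p of 0.05 in reticular cells, with hematopoietic cells of the same libraries as open symbols. Col8a2 and Col6a5 lie far above the open symbols in the libraries where they are high, whereas for Col10a1, Col11a2 and Col2a1 open and filled symbols of ABL 1 nearly coincide.

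Markers of other cells moved with condition in the reticular class. The 12 pre-osteoblast markers summed to 1757 CPM in CONT 1, 6625 in ABL 1, 1920 in CONT 2 and 6093 in ABL 2, with a UMI of every marker in each library. The 12 osteoblast markers, which include Bglap, summed to 4219, 3347, 7457 and 2699 CPM and so moved the other way. Of 12 chondrocyte markers, 11, 11, 5 and 9 had a UMI, with sums of 89.7, 175, 91.9 and 193 CPM. The 14 periosteal-like markers summed to 975, 1309, 946 and 1454 CPM, higher in both ABL libraries. Endothelial markers summed to 81.9, 42.5, 20.6 and 692 CPM and erythroid markers to 15010, 11799, 285 and 5034 CPM. Their part in the differences above was not tested.

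In pre-osteoblasts 28 of the 44 chains were among the 7475 genes tested. Of these, 11 were higher in ABL, against 2.35% of genes, and 1 was lower, against 3.53%, with a median log2 fold change of 1.73 over the chains and 0.02 over all genes. Col3a1 was at 281 CPM in CONT 1, 2063 in ABL 1, 57.2 in CONT 2 and 9329 in ABL 2, and rose by 5.13 ± 1.20. Col1a1 rose by 4.89 ± 1.36, Col8a2 by 4.97 ± 1.00 and Col5a1 by 2.09 ± 0.69. Col11a1 and Col11a2 rose by 3.07 ± 0.67 and 3.23 ± 0.65, Col16a1 by 2.40 ± 0.63 and Col18a1 by 2.29 ± 0.66. Col13a1, with no UMI in either CONT library, was at 14.7 and 69.8 CPM in ABL 1 and ABL 2, and Col15a1 was at 4.85, 23.0, 0 and 115 CPM. Col22a1 was at 4.85, 27.6, 2.38 and 33.8 CPM. Col8a2, Col13a1, Col15a1 and Col22a1 had at most 1 UMI in each CONT library of this class. There 3 UMIs stand for 14.6 CPM in CONT 1 and 7.15 CPM in CONT 2. These chains, which are among the 11, passed the filter on low counts through the ABL libraries alone, so their CONT level is not measured. Col6a5 was at 43.7, 16.6, 155 and 2.28 CPM and fell by 3.65 ± 0.63. Col1a2 differed by 3.18 ± 1.22 and did not pass (adjusted p = 0.105). The differences were larger in replicate 2. Without it, the log2 difference of CPM plus 1 was 3.76 for Col1a1, 2.87 for Col3a1, 2.14 for Col8a2, 2.04 for Col15a1, 1.51 for Col18a1, 1.68 for Col11a1, 1.75 for Col11a2, 3.98 for Col13a1, 2.29 for Col22a1 and -1.34 for Col6a5. Without replicate 1, it was 5.89, 7.32, 6.21, 6.86, 2.58, 4.29, 4.49, 6.15, 3.36 and -5.57 in the same order.

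The pre-osteoblasts of the 2 conditions were not alike in other ways. Each CONT library had 30 of these cells. Their 12 reticular markers summed to 13307 CPM in CONT 1 and 16864 in CONT 2, against 3692 in ABL 1 and 1280 in ABL 2. All 12 had UMIs in each library. The 12 pre-osteoblast markers summed to 10804 CPM in CONT 1, 18560 in ABL 1, 19241 in CONT 2 and 18498 in ABL 2. In CONT 1 they thus lay below the reticular markers, and Cthrc1 and Tnn had no UMI in CONT 1 or CONT 2. The osteoblast markers summed to 6588 CPM in CONT 1, 6260 in ABL 1, 6688 in CONT 2 and 12573 in ABL 2, the periosteal-like markers to 2057, 1112, 791 and 3466 CPM, and the chondrocyte-like markers to 359, 273, 160 and 2762 CPM. All 3 sums were highest in ABL 2 and lower in ABL 1 than in CONT 1, and their part in the differences above was not tested. Within the clusters that hold at least 10 cells of each condition, 5 of 21 chains tested were higher (0.886% of all genes) and 1 lower (1.66%). Col5a1 and Col16a1 were then not called (log2 differences of 1.10 and 0.61).

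In periosteal-like cells 21 chains were tested among 5485 genes, and edgeR called none, against 0.255% of genes higher, 0.255% lower and 0.51% in either direction. At an unadjusted p under 0.05 there were 398 genes and 1 chain, and DESeq2 called 1 chain lower (0.0605% of all genes). The chain with the unadjusted call, Col6a5, was at 154 CPM in CONT 1, 81.2 in ABL 1, 463 in CONT 2 and 5.65 in ABL 2 (log2 difference -3.69 ± 0.95, edgeR adjusted p = 0.0727). For Col3a1 the difference was 0.60 ± 1.30, for Col1a1 1.39 ± 1.27 and for Col8a2 -0.36 ± 0.53. In this class the CONT libraries held only 57 and 24 cells. Reticular markers summed to 6108 CPM in CONT 1, 7953 in ABL 1, 9163 in CONT 2 and 1173 in ABL 2 periosteal-like cells. Periosteal-like markers summed to 15982, 12345, 9057 and 12023 CPM in the same order. The part of the reticular markers in the Col6a5 difference was not tested.

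**Figure D5:**
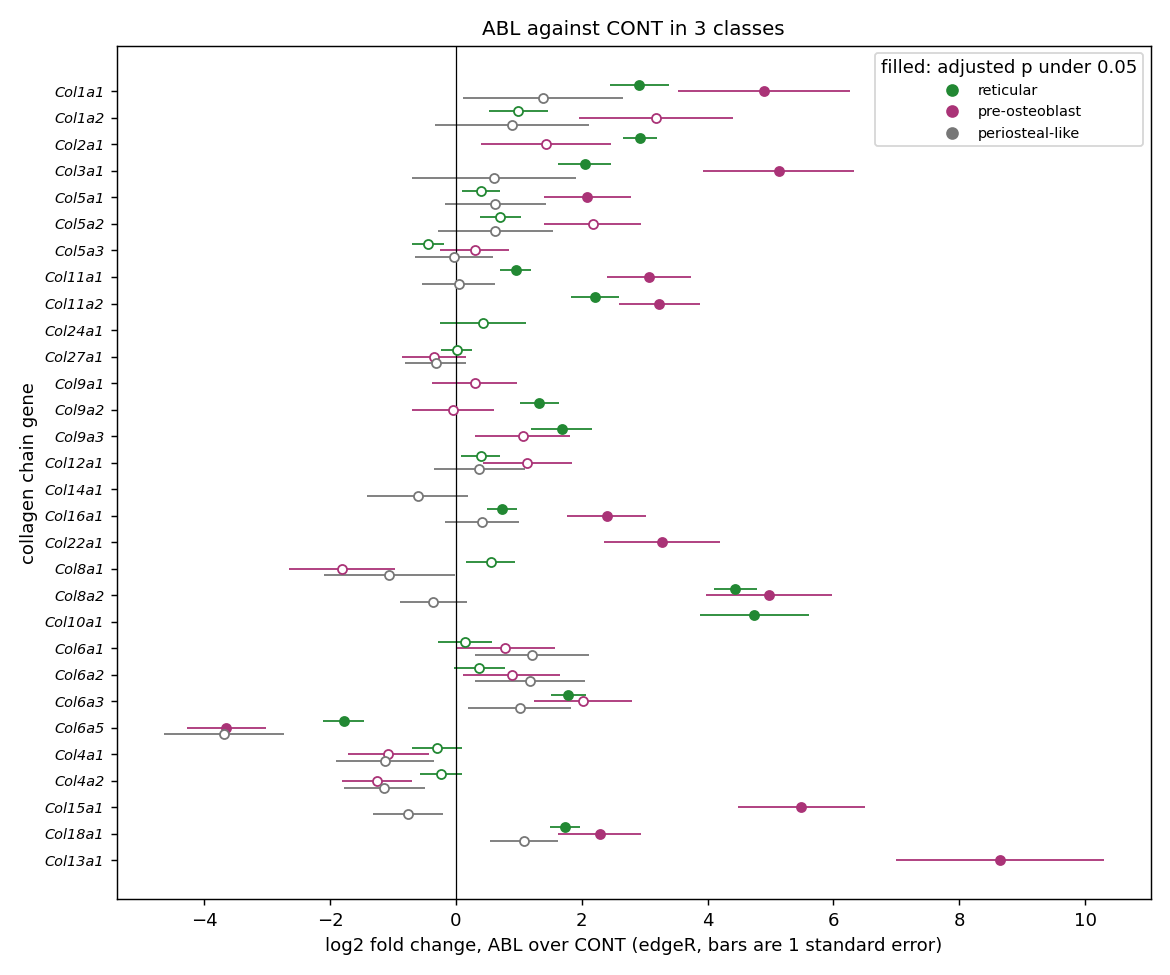
Log2 fold change of ABL over CONT with its standard error for the named chains in reticular, pre-osteoblast and periosteal-like cells, filled where the adjusted p is under 0.05. Col6a5 is left of 0 in all 3 classes (-1.78, -3.65 and -3.69) and Col8a2 is right of 0 in reticular cells and pre-osteoblasts (4.44 and 4.97). Col8a2 entered both tests through the ABL libraries alone, and its CONT level in pre-osteoblasts is not measured.

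The difference between classes in the response was tested as an interaction. The ABL effect was larger in pre-osteoblasts than in reticular cells for 4 of 34 chains (0.538% of genes): Col3a1 by 3.13 ± 0.53, Col1a2 by 2.25 ± 0.47, Col1a1 by 2.03 ± 0.48 and Col5a1 by 1.72 ± 0.43 on the log2 scale. It was smaller for 1, Col8a1, by -2.29 ± 0.37 (1.41% of genes, and 1.95% in either direction). Col8a1 was at 1494 CPM in CONT 1, 892 in ABL 1, 2222 in CONT 2 and 280 in ABL 2 pre-osteoblasts. With called doublets removed, none of these 5 differences passed, against 0.0276% of all genes larger and 0.12% smaller. In periosteal-like cells the effect was smaller than in reticular cells for 2 of 31 chains (0.0699% of genes) and larger for none at an adjusted p under 0.05 (0.0175% of genes, and 0.0874% in either direction), with 10 chains at an unadjusted p under 0.05. The 2 were Col15a1 by -4.97 ± 0.60 and Col8a2 by -4.67 ± 0.54. Col8a2 was already at 136, 165, 92.1 and 47.0 CPM in the 4 periosteal-like libraries, above all reticular libraries. Col15a1 was at 0, 1.96, 0.497 and 13.2 CPM in reticular cells of CONT 1, ABL 1, CONT 2 and ABL 2, from 0, 6, 13 and 36 UMIs. This was 0.812 times the hematopoietic level in ABL 1 (95% interval 0.260 to 2.19) and 3.08 times in ABL 2 (1.90 to 4.99), so in ABL 1 it could not be told from background. For Col6a5 the difference did not pass in either class.

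All mesenchymal cells together, which number 1293, 666, 2045 and 1791, mix classes whose shares differ between conditions, reticular cells being 89.8% of them in CONT 1 and 19.0% in ABL 2. There 8 of 37 chains were higher in ABL (2.13% of genes) and 1 was lower (0.985%), or 9 in either direction (3.12%), among 13607 genes tested. The higher ones were Col10a1 (5.89 ± 0.57), Col22a1 (5.40 ± 0.88), Col4a5 (4.65 ± 1.06), Col13a1 (3.95 ± 0.61), Col15a1 (3.08 ± 0.71), Col8a2 (3.02 ± 0.49), Col11a2 (2.87 ± 0.66) and Col24a1 (2.72 ± 0.56). Col4a5 is an X-linked basement membrane chain of low level, at 12.4 CPM from 70 UMIs in periosteal-like cells of ABL 2. Among the named classes, Col22a1, Col13a1 and Col24a1 were highest in osteoblasts, and Col10a1 in chondrocyte-like cells. Col11a2 was highest in chondrocyte-like cells of ABL 1 but in osteoblasts of ABL 2. In ABL 2, clusters without a name held 83.5% of the Col22a1 and 37.2% of the Col24a1 UMIs, and osteoblasts 13.4% and 34.4%. Col6a5 fell by 3.51 ± 0.87. Col1a1 differed by 4.40 ± 1.47 and did not pass (adjusted p = 0.122). In cells with a Y-linked UMI and no Xist UMI, 7 of 33 chains were higher (4.46% of all genes) and 1 lower (3.81%). Without the replicate block, or with a stricter cell filter, none was called, with 16 and 19 chains at an unadjusted p under 0.05. Under both settings 0% of all genes were called. With DESeq2 20 of 41 chains were higher (2.45% of all genes), and without TMM normalization 15 of 37 (4.8%), so the number of calls in all mesenchymal cells depends on the processing. With replicate 2 left out, the log2 differences of CPM plus 1 were 3.10 for Col22a1, 1.21 for Col15a1, 1.33 for Col4a5, 2.17 for Col8a2, 1.94 for Col11a2 and -1.55 for Col6a5. They were 6.28, 4.52, 2.44, 3.43, 3.78 and -5.28 with replicate 1 left out, whereas Col10a1 was at 5.14 without replicate 2 and 3.50 without replicate 1.

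Genes that act on collagen were read from the same test in reticular cells. Of 20 listed enzymes of collagen synthesis 19 were tested, and P4ha3 (a prolyl hydroxylase subunit, log2 fold change 1.30 ± 0.26) and Fkbp10 (an endoplasmic reticulum prolyl isomerase, 0.79 ± 0.26) rose while P3h2 (a prolyl 3-hydroxylase) fell by 1.45 ± 0.25. Of 11 tested genes of processing and crosslinking, Pcolce2, an enhancer of procollagen cleavage, rose (3.00 ± 0.93, at most 3.60 CPM) and the transglutaminase Tgm2 fell by 0.85 ± 0.28. For the 7 tested collagen receptors the smallest adjusted p was 0.144, that of the integrin chain Itga1 (log2 difference -0.67 ± 0.26). Of 9 genes of collagen degradation or its inhibition, Timp1, an inhibitor of matrix proteases, rose by 2.11 ± 0.25, the gelatinase Mmp2 by 1.99 ± 0.26 and the gelatinase Mmp9 by 0.72 ± 0.23. The list also holds the inhibitors Timp2 and Timp3 (0.40 and -0.14, not past the threshold). Over all genes tested, 2.56% were called higher and 2.17% lower. The median log2 fold change was 0.21 for synthesis, 0.33 for processing, -0.28 for receptors and 0.67 for degradation with its inhibitors, against -0.01 over all genes tested. The last median therefore does not give a direction for degradation.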

How the data were processed

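Per the labels and the study's methods, the authors aligned the reads to mm10 with added eGFP and tdTomato sequences in Cell Ranger (version 3.0.0 per the file headers of replicate 2, not given for replicate 1 in the sources used here) and deposited unfiltered UMI counts per gene and barcode, with none of the values normalized. No cell annotation was used. Starting from these deposited counts, cells were barcodes with 500 or more genes and no more than 20% of UMIs from mitochondria in replicate 1 (1000 and 15% in replicate 2), whose UMIs reached a fraction of 0.1 of the 99th percentile over the 3000 largest barcodes. Barcodes of up to 300 UMIs served as empty droplets. Doublets were scored at 0.8% per 1000 cells and kept, with their removal as an alternative. Cells were clustered per replicate in Seurat 5.3.0 (2000 variable genes, 30 components, 20 neighbours, resolution 0.8) without 243 collagen, marker and listed genes, and clusters were named from markers, of which 143 of 146 were found. A mesenchymal cluster that scored best for myeloid markers was called mixed, as was an endothelial cluster with a close runner-up. Other mesenchymal clusters without a clear name, including those with a close runner-up among the classes, stayed unnamed. Names were rebuilt here and may differ from those of the study.

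UMI counts were summed per library and class, and classes with 10 cells in every library were tested in edgeR 4.0.16 (R 4.3.3) by the quasi-likelihood test with TMM, filterByExpr with a minimum count of 10, the replicate as a block and Benjamini-Hochberg adjustment over all genes tested. Interactions used the library as the block. DESeq2 1.42.0 was an alternative. The replicate block was used because the replicates differ in chemistry. Deviations of same-numbered libraries from their group means correlated at 0.696 in reticular and 0.383 in all mesenchymal cells. The labels do not say that a number marks a shared mouse. The study calls the replicates biological, but the labels do not name the mice behind each library, so p-values apply to these libraries. With 2 libraries per condition and a block, a single gene leaves little spread to measure. The quasi-likelihood test therefore leans on a dispersion estimated over all genes. Very small p-values do not stand for a measured spread of the chain itself. In simulated counts, where 200 genes were shifted by 2 on the log2 scale, the test recovered 199 genes in reticular cells (11383 genes), 68 in mesenchymal cells (13607), 91 in pre-osteoblasts (7475) and 44 in periosteal-like cells (5485). CPM intervals are exact Poisson and shares exact binomial at 95%, and the depth of each class limits them. Shares of cells were taken after thinning to 2000 UMIs. Named chains are those past an adjusted p of 0.05 in reticular or all mesenchymal cells, those of 100 CPM or more in both replicates of any class, and their partners in a trimer. Of the pathway lists, genes past the threshold in reticular cells are named, up to 4 a list. Itga1 was added after its value was seen. The members and all lists were chosen with earlier results of these data known. Numerical work used Python 3.11.15, numpy 2.4.6, scipy 1.17.1 and scanpy 1.11.5.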

Additional observations from a re-analysis of the deposited data

Results flagged for a closer look

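For 7 chains the effect of ablation differed between classes by the edgeR test of the interaction. The effect on Col3a1 was larger in pre-osteoblasts than in reticular cells by 3.13 on the log2 scale (adjusted p = 0.00241), that on Col1a2 by 2.25 (adjusted p = 0.0135), that on Col1a1 by 2.03 (adjusted p = 0.0275) and that on Col5a1 by 1.72 (adjusted p = 0.0371). The effect on Col8a1 differed by -2.29 (adjusted p = 0.00167). With called doublets removed, none of these pre-osteoblast differences passed, against 0.0276% of all genes larger and 0.12% smaller. Between periosteal-like and reticular cells, the effects on Col15a1 and Col8a2 differed by -4.97 and -4.67 (adjusted p = 0.0214 for both). Col15a1 had only 0, 6, 13 and 36 UMIs in reticular cells of CONT 1, ABL 1, CONT 2 and ABL 2, and in ABL 1 its level was 0.812 times that of hematopoietic cells (95% interval 0.260 to 2.19). The pre-osteoblasts of CONT 1 and CONT 2 numbered 30 each and had a higher summed CPM of reticular markers than those of ABL. The part of this in the differences was not tested.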

How the results depend on the processing

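The alternatives with hematopoietic subtraction, shared clusters and all settings for pre-osteoblasts and periosteal-like cells were chosen after seeing the data. Under no setting did a called chain change direction. Without the replicate block, edgeR called 0 chains in reticular, mesenchymal, pre-osteoblast and periosteal-like cells, with 8, 16, 15 and 1 at an unadjusted p under 0.05, and on simulated counts that fit recovered 0 of 200 changed genes in each class. With the hematopoietic level subtracted from all genes the counts were also 0, with 8, 1, 9 and 0 unadjusted. Under both settings 0% of all genes were called in each of these classes. In the counts that follow, percentages are the share of all genes called in the same direction. In reticular cells, 12 higher chains (2.56%) became 6 in cells with a Y-linked UMI and no Xist UMI (0.648%). They became 8 with free RNA subtracted (2.69%), 9 with DESeq2 (0.645%) and 9 in cells with a tdTomato UMI (1.61%). The number was 9 with the hematopoietic level of the chains subtracted (2.51%) and 10 without integration (2.01%). In mesenchymal cells, 8 (2.13%) became 20 with DESeq2 (2.45%), 15 without TMM (4.8%) and 13 without a filter on low counts (2.92%). The number was 13 without doublets (3.6%), 14 in cells with a tdTomato UMI (3.93%) and 0 (0%, 19 unadjusted) under a stricter cell filter. The 1 lower chain (0.985%) became 0 under that filter (0%) and with free RNA subtracted (0.734%, 24 unadjusted). In pre-osteoblasts, 11 (2.35%) became 5 in clusters with cells of both conditions (0.886%). The number was 8 with DESeq2 (0.607%), 8 at resolution 1.5 (1.56%) and 15 in cells with a tdTomato UMI (2.64%). DESeq2 gave no adjusted p for 7 of the chains that edgeR called in pre-osteoblasts, so its 8 include chains outside the 11. In periosteal-like cells, 0 higher (0.255%) became 1 without doublets (1.6%). The 0 lower (0.255%) became 1 with DESeq2 (0.0605%), without TMM (1.0%), without a filter on low counts (0.351%) and without doublets (2.99%). It was also 1 with free RNA (0.841%) or the hematopoietic level of the chains (1.11%) subtracted. The same held in cells with a tdTomato UMI (0.92%), with all variable genes (2.38%) and at resolution 0.4 (0.51%). Of the differences between pre-osteoblasts and reticular cells, 4 larger (0.538%) and 1 smaller (1.41%) became 0 and 0 without doublets (0.0276% and 0.12%, 9 unadjusted). Both were also 0 with the hematopoietic level subtracted from all genes (0%, 6 unadjusted). The 4 larger became 1 in cells with a tdTomato UMI (0.25%). For periosteal-like cells, 2 smaller (0.0699%) became 5 without doublets (2.64%). The number was 0 with the hematopoietic level subtracted from all genes (0%, 1 unadjusted) and 1 with that of the chains subtracted (0.0437%). The cause was not tested. With 1 replicate left out no test remained. The values are then log2 differences of CPM plus 1 between the remaining libraries, without TMM, which is another scale than the fitted values and understates rare chains. In reticular cells they ranged from 2.70 to 3.32 for Col1a1, 1.63 to 2.64 for Col3a1, 3.55 to 4.33 for Col8a2, 1.87 to 2.87 for Col10a1 and -2.39 to -0.97 for Col6a5. Several settings left under 10 cells of pre-osteoblasts or periosteal-like cells in a library and gave no value. Depth limits the small classes, in which 1 UMI is a large part of the CPM of rare chains.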
